A study of Homo sapiens with 9 samples.

Results

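PPP1R14B and 9 other genes of the pathway that sets the phosphorylation of the myosin light chain were followed across 9 RNA-seq libraries of Huh7 cells, 3 transfected for 48 h with a Scramble control siRNA, 3 with Si-KDM4C#1 and 3 with Si-KDM4C#2. Huh7 is an established line labelled as human hepatocellular carcinoma, and the siRNAs target KDM4C, a histone demethylase. The 10 genes, of 32906 listed, were taken by symbol: the inhibitors PPP1R14A, PPP1R14B and PPP1R14C, the phosphatase subunits PPP1R12A and PPP1CB, the kinases ROCK1, ROCK2 and MYLK, and the myosin chains MYL9 and MYH9. PPP1R14B was selected on its rise with both siRNAs, so its change is described and not tested. Of the 10 genes, 7 reached a mean of 1 FPKM (fragments per kilobase of exon and of sequencing depth) in at least 1 group, and PPP1R14A, PPP1R14C and MYLK did not. The labels give the replicates a number only and do not say that they came from separate cultures, so p-values measure the spread between these libraries, which may be technical.

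Non-muscle myosin II pulls on actin filaments when its regulatory light chain is phosphorylated. Myosin light chain kinase and the kinases ROCK1 and ROCK2 add that phosphate. Myosin phosphatase, made of the catalytic subunit PP1 beta (PPP1CB) and the targeting subunit MYPT1 (PPP1R12A), removes it. ROCK also phosphorylates MYPT1 and so restrains the phosphatase. The PPP1R14 proteins are small inhibitors of PP1: PPP1R14A is CPI-17 of smooth muscle, PPP1R14B is PHI-1, found in many tissues, and PPP1R14C is KEPI.

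The 3 inhibitor genes started from different promoters, and the 250 bases upstream of each RefSeq start (GRCh38.p14) are shown because only PPP1R14B was detected well above 1 FPKM. The windows are chr11:64246944-64247193 on the minus strand for PPP1R14B, chr19:38256375-38256624 on the minus strand for PPP1R14A and chr6:150142794-150143043 on the plus strand for PPP1R14C. They are written 5′ to 3′ on the strand of the gene, and capitals mark the GC box, GGGCGG, on either strand.
PPP1R14B: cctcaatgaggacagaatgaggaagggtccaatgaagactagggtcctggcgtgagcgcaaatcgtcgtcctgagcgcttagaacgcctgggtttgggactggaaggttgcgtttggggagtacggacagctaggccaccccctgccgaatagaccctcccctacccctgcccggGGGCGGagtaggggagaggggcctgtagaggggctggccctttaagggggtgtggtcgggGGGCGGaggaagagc
PPP1R14A: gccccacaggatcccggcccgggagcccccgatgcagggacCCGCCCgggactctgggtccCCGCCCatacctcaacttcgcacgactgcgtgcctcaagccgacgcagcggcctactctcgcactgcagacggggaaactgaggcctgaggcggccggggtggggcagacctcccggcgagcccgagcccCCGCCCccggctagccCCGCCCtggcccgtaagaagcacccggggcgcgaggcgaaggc
PPP1R14C: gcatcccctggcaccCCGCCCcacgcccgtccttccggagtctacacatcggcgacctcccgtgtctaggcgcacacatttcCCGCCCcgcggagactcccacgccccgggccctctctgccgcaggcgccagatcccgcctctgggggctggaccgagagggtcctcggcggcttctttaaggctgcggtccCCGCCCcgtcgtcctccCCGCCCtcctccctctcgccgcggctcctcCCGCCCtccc
The PPP1R14B window held 2 GC boxes, 13 CpG dinucleotides and 63.2% GC. The PPP1R14A window held 4 GC boxes, 27 CpG and 74.8% GC, and the PPP1R14C window held 5 GC boxes, 28 CpG and 74% GC. Of 34941 promoter windows of the same length, 42.5% held a GC box, and the medians were 11 CpG and 58% GC. A CCAAT box (CCAAT, either strand) was found once in the PPP1R14B window and in 32% of all windows. The E-box CACGTG, found in 6.32% of windows, and TATAAA, found in 10.8%, were not in any of the 3. These matches describe letters in the windows and not bound sites.

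The targeted gene was lower in every siRNA library. KDM4C stood at 4.88, 4.63 and 4.57 FPKM in Scramble, at 1.18, 1.102 and 1.13 with Si-KDM4C#1 and at 0.256, 0.349 and 0.256 with Si-KDM4C#2. Its log2 fold change was -1.41 with Si-KDM4C#1 (SE 0.077, adjusted p = 2.65e-07, limma) and -2.15 with Si-KDM4C#2 (SE 0.077, adjusted p = 5.45e-08). Library totals, recovered from the FPKM steps, were 14597499 to 18058552 fragments, and no pair of replicates agreed within counting noise. Mitochondrial genes took 26.6% to 30.1% of summed FPKM in Scramble, 20.9% to 22.2% with Si-KDM4C#1 and 21.7% to 23.2% with Si-KDM4C#2, and the part of this shift in the results below was not tested. None of the 10 hepatocyte markers listed, which include AFP, APOA1 and HNF4A, reached 1 FPKM in any library, so the markers measured of the labelled cell type were at or near 0 and do not bear out the label Huh7. Their summed level was 0.236 to 0.262 FPKM in Scramble, 0.0347 to 0.149 with Si-KDM4C#1 and 0.221 to 0.45 with Si-KDM4C#2. The hepatocyte markers ALB, APOB and TTR were also looked for, but their symbols were not among the genes listed. KRT8 and KRT18, keratins of simple epithelia, were present (means of 199.5 and 140.5 FPKM in Scramble). The other epithelial markers measured were low: the keratin KRT19 did not exceed 0.2998 FPKM, and CDH1 did not exceed 0.0322 FPKM. The symbol of the epithelial marker EPCAM was not among the genes listed. The leukocyte marker PTPRC did not exceed 0.00679 FPKM and all 3 endothelial markers were under 1 FPKM throughout.

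PPP1R14B (chromosome 11, 64244480 to 64246941, minus strand) had the highest level of the PPP1R14 genes measured. Its level was 24.3, 22.6 and 26.5 FPKM in the Scramble libraries, 93.7, 93.0 and 95.7 FPKM with Si-KDM4C#1, and 140.2, 132.6 and 138.7 FPKM with Si-KDM4C#2. The 3 groups did not overlap, and the order Scramble, Si-KDM4C#1, Si-KDM4C#2 held for every library. Group means were 24.5 ± 1.96, 94.1 ± 1.40 and 137.2 ± 4.01 FPKM (SD, n = 3 each), a ratio of 3.84 for Si-KDM4C#1 and 5.603 for Si-KDM4C#2. On the log2(FPKM + 1) scale, which understates the change of low genes, the rise was 1.90 for Si-KDM4C#1 and 2.44 for Si-KDM4C#2 (SE 0.053). On that scale 35 of 14363 genes rose more with Si-KDM4C#1 and 0 rose more with Si-KDM4C#2, which describes the contrasts that chose the gene. The values rested on 596 to 753 fragments in Scramble, 2246 to 2800 with Si-KDM4C#1 and 3416 to 3916 with Si-KDM4C#2. In these bulk libraries, a change in the share of cells that express a gene and a change in its RNA per cell cannot be told apart.

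A processed pseudogene of PPP1R14B moved with it. This copy, PPP1R14BP3, had means of 7.92 ± 0.612, 30.2 ± 3.895 and 46.9 ± 8.67 FPKM (SD, n = 3 each) in Scramble, Si-KDM4C#1 and Si-KDM4C#2. Its log2 changes were 1.80 and 2.41. Fragments from such a copy and from PPP1R14B may have been split between them by the counting, so both levels are uncertain. PPP1R14B transcripts were 68.0% GC, and when the libraries were adjusted for GC content by lowess its log2 rise was 1.54 for Si-KDM4C#1 and 2.00 for Si-KDM4C#2. Its neighbours on chromosome 11 had smaller values. FKBP2, a prolyl isomerase, had log2 differences from Scramble of 0.04 (adjusted p = 0.822) and 0.55 (adjusted p = 0.00408) for Si-KDM4C#1 and Si-KDM4C#2. For PLCB3, a phospholipase C, they were 0.29 (adjusted p = 0.00725) and 0.83 (adjusted p = 1.15e-05). For VEGFB, a growth factor, they were 0.44 (adjusted p = 0.00116) and 0.53 (adjusted p = 0.00043).

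The 2 other inhibitor genes were near the limit of detection. PPP1R14A was at 0.0883, 0.0838 and 0.117 FPKM in Scramble, 0.0738, 0.0456 and 0.207 FPKM with Si-KDM4C#1 and 0.387, 0.214 and 0 FPKM with Si-KDM4C#2, which is 0 to 9 fragments a library. PPP1R14C did not exceed 0.06 FPKM, or 2 fragments, in any library. The groups overlapped for both genes, and a change of either was not detectable at this depth. PPP1R14B made up 99.46% to 99.98% of the summed FPKM of the 3 inhibitor genes.

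**Figure D1:**
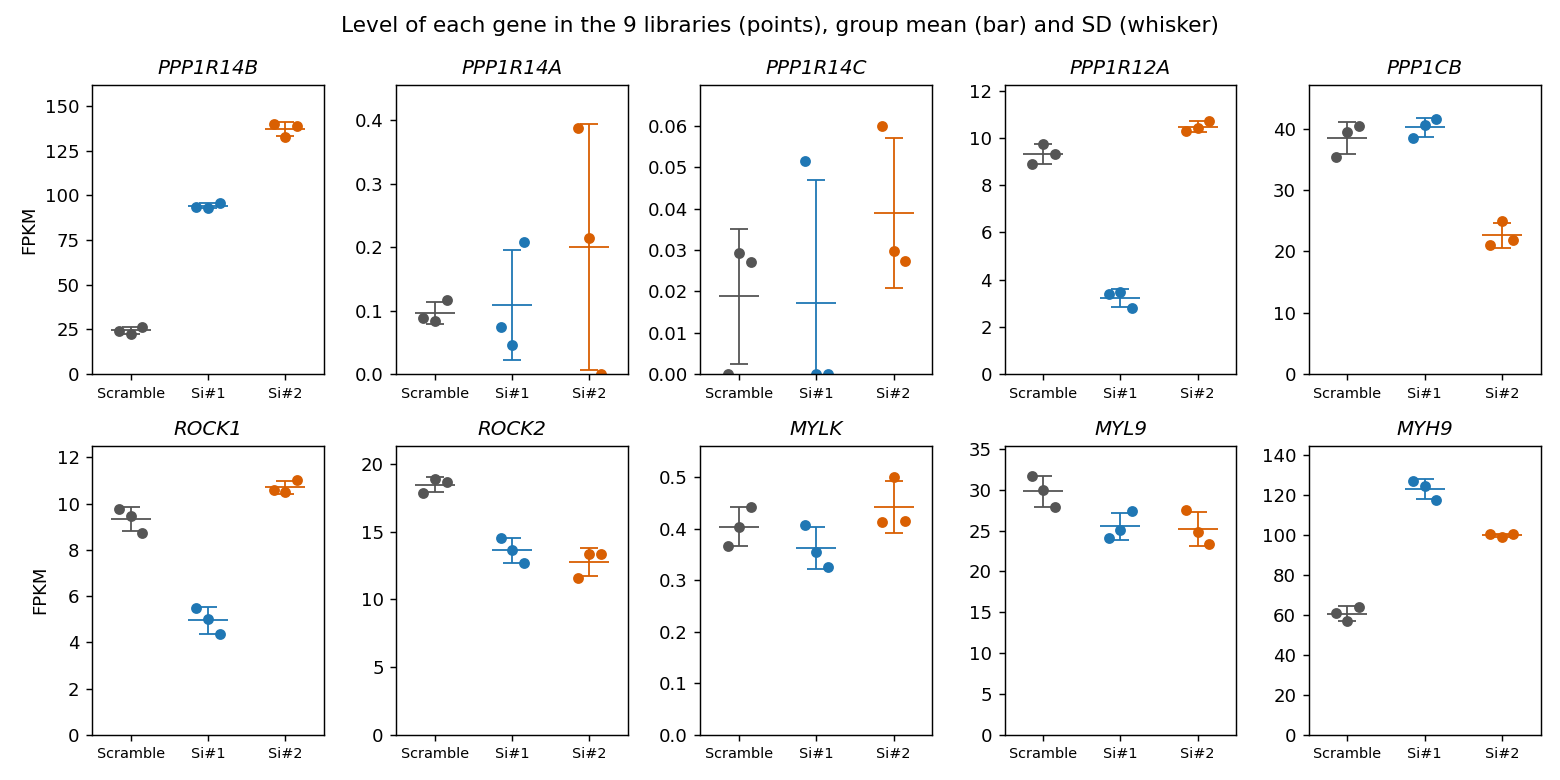
FPKM of each of the 10 genes (vertical axes, linear from 0, own scale in each panel) in the 9 libraries, with points for libraries, a bar for the group mean and whiskers for the SD. PPP1R14B stands at 22.6 to 26.5 FPKM in Scramble and at 132.6 to 140.2 with Si-KDM4C#2, while PPP1R12A and ROCK1 are low only with Si-KDM4C#1 (Si#1) and PPP1CB is low only with Si-KDM4C#2 (Si#2).

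The phosphatase subunits fell with one siRNA each. PPP1R12A, the MYPT1 subunit that brings the phosphatase to myosin, stood at 8.89, 9.73 and 9.34 FPKM in Scramble, at 3.38, 3.47 and 2.78 in the Si-KDM4C#1 libraries and at 10.3, 10.4 and 10.7 in those of Si-KDM4C#2. All Si-KDM4C#1 libraries lay below Scramble and all Si-KDM4C#2 libraries above it. The log2 difference from Scramble was -1.30 for Si-KDM4C#1 (SE 0.068, adjusted p = 2.12e-07) and 0.15 for Si-KDM4C#2 (adjusted p = 0.076), and the siRNAs differed from each other by 1.45 (adjusted p = 1.48e-07). Si-KDM4C#2 passed the threshold for this gene with the GC adjustment (0.25, adjusted p = 0.0048; 0.011 with the replicate block), in a fit of only the 6 libraries compared (adjusted p = 0.0265) and without Si-KDM4C#1 replicate 3 (adjusted p = 0.0196).

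PPP1CB, the catalytic subunit, stood at 35.4, 39.5 and 40.5 FPKM in Scramble, at 38.5, 40.7 and 41.5 in the Si-KDM4C#1 libraries and at 21.1, 24.9 and 21.8 in those of Si-KDM4C#2. Scramble and Si-KDM4C#1 overlapped, and every Si-KDM4C#2 library lay below both. The log2 difference from Scramble was 0.06 for Si-KDM4C#1 (95% interval -0.09 to 0.22, adjusted p = 0.437) and -0.74 for Si-KDM4C#2 (SE 0.069, adjusted p = 1.41e-05). The difference between the siRNAs was -0.81 (adjusted p = 6.42e-06). With the GC adjustment, PPP1CB, whose transcripts are 35.5% GC, passed the threshold with Si-KDM4C#1 as higher (0.37, adjusted p = 0.000764), and with quantile normalization its Si-KDM4C#1 value was -0.12.

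The ratio of inhibitor to target RNA is given as a description, since it includes PPP1R14B. PPP1R14B over PPP1R12A was 2.33 to 2.84 in the Scramble libraries, 26.8 to 34.4 with Si-KDM4C#1 and 12.7 to 13.6 with Si-KDM4C#2. PPP1R14B over PPP1CB was 0.573 to 0.685 in Scramble, 2.29 to 2.43 with Si-KDM4C#1 and 5.33 to 6.65 with Si-KDM4C#2. The siRNA with the higher ratio thus differed between the 2 subunits, and these are ratios of RNA levels per length.

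Both ROCK genes fell with Si-KDM4C#1, and only ROCK2 passed the test with Si-KDM4C#2. ROCK1 stood at 9.77, 9.48 and 8.74 FPKM in Scramble, at 5.50, 4.99 and 4.36 in the Si-KDM4C#1 libraries and at 10.6, 10.49 and 11.03 in those of Si-KDM4C#2. The groups did not overlap, with Si-KDM4C#1 below Scramble and Si-KDM4C#2 above it. The log2 difference from Scramble was -0.80 for Si-KDM4C#1 (SE 0.072, adjusted p = 6.94e-06) and 0.18 for Si-KDM4C#2 (adjusted p = 0.0522), and the direct difference was 0.98 (adjusted p = 2.22e-06). The Si-KDM4C#2 value is at the threshold: its adjusted p ranged from 0.00709 to 0.173 over the alternatives other than leaving out a library, and it was 0.0291 without Si-KDM4C#1 replicate 1 and 0.0207 without Si-KDM4C#1 replicate 3.

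ROCK2 stood at 17.9, 18.9 and 18.7 FPKM in Scramble, at 14.5, 13.7 and 12.7 in the Si-KDM4C#1 libraries and at 11.6, 13.4 and 13.3 in those of Si-KDM4C#2. Both siRNA groups lay below Scramble and overlapped each other. The log2 difference from Scramble was -0.42 for Si-KDM4C#1 (SE 0.065, adjusted p = 0.000327) and -0.50 for Si-KDM4C#2 (SE 0.065, adjusted p = 0.000121). The difference between the siRNAs was -0.09, with a 95% interval of -0.23 to 0.06 (adjusted p = 0.264), although it passed the threshold with limma voom on recovered fragments (-0.22, adjusted p = 0.00169) and with the GC adjustment (-0.23, adjusted p = 0.00519). ROCK2 exceeded ROCK1 in every library, by 1.83 to 2.13 times in Scramble, 2.64 to 2.91 times with Si-KDM4C#1 and 1.19 ± 0.093 times (SD, n = 3) with Si-KDM4C#2.

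MYLK, the gene of the calmodulin-dependent light chain kinase, was at 0.326 to 0.501 FPKM in all 9 libraries. Both siRNA groups overlapped Scramble, and the lowest Si-KDM4C#2 library (0.413) lay just above the highest Si-KDM4C#1 library (0.407). It passed the test in no comparison (adjusted p = 0.70, 0.734 and 0.449 for Si-KDM4C#1, Si-KDM4C#2 and the direct difference, from the fit over all 32906 genes). MYLK-AS1, which overlaps MYLK on the other strand, had means of 0.611 ± 0.0916 FPKM in Scramble, 1.51 ± 0.331 in Si-KDM4C#1 and 1.56 ± 0.472 in Si-KDM4C#2 libraries (SD, n = 3 each). Strand was not stated for the counting, so fragments of the overlapping genes cannot be told apart.

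**Figure D2:**
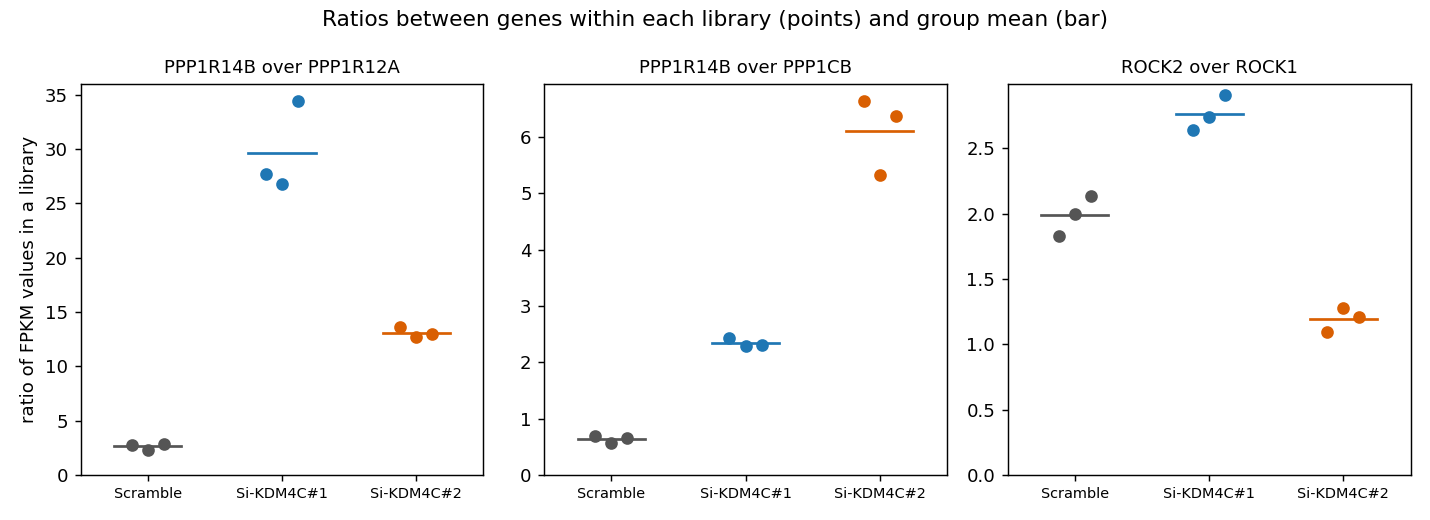
Ratio of the FPKM of 2 genes within each library (vertical axes, linear from 0, no unit), with points for libraries and a bar for the group mean. PPP1R14B over PPP1R12A is largest with Si-KDM4C#1 (26.8 to 34.4), PPP1R14B over PPP1CB is largest with Si-KDM4C#2 (5.33 to 6.65), and ROCK2 over ROCK1 is smallest with Si-KDM4C#2 (mean 1.19).

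MYH9 and MYL9 moved in opposite directions. MYH9, the heavy chain of non-muscle myosin IIA, stood at 61.1, 56.9 and 64.1 FPKM in Scramble, at 127.2, 124.5 and 117.7 in the Si-KDM4C#1 libraries and at 100.6, 99.2 and 100.3 in those of Si-KDM4C#2. Every siRNA library lay above every Scramble library, and the siRNA groups did not overlap. The log2 difference from Scramble was 1.01 for Si-KDM4C#1 (SE 0.047, adjusted p = 1.09e-07) and 0.71 for Si-KDM4C#2 (SE 0.047, adjusted p = 1.65e-06), and Si-KDM4C#2 was lower than Si-KDM4C#1 by a difference of -0.30 (adjusted p = 0.00041). The Si-KDM4C#1 change is just past 2-fold, with a range of 0.96 to 1.05 when each library was left out in turn.

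MYL9, a regulatory light chain, stood at 31.7, 29.9 and 27.9 FPKM in Scramble, at 24.1, 25.01 and 27.3 in the Si-KDM4C#1 libraries and at 27.5, 24.8 and 23.3 in those of Si-KDM4C#2. All siRNA libraries were below the lowest Scramble library, by as little as the step from 27.5 to 27.9 FPKM. The log2 difference from Scramble was -0.22 for Si-KDM4C#1 (SE 0.071, adjusted p = 0.0215) and -0.24 for Si-KDM4C#2 (SE 0.071, adjusted p = 0.0171), and the siRNAs differed by -0.02 (95% interval -0.18 to 0.14). The Si-KDM4C#1 call was lost without Scramble replicate 1 (adjusted p = 0.0752), Scramble replicate 2 (adjusted p = 0.0531), Si-KDM4C#1 replicate 1 (adjusted p = 0.0755) or Si-KDM4C#1 replicate 2 (adjusted p = 0.0604). The Si-KDM4C#2 call was lost without Scramble replicate 1 (adjusted p = 0.0592) or Si-KDM4C#2 replicate 3 (adjusted p = 0.0656). Of 10 smooth muscle markers, 7 were under 1 FPKM in every library, with CNN1 at 0 in 8 of 9 libraries and at 0.0192 FPKM in the other; the summed level of the list was 7.99 to 8.56 FPKM in Scramble, 9.18 to 9.78 with Si-KDM4C#1 and 7.58 to 8.27 with Si-KDM4C#2.

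The order of the levels changed between the groups. In Scramble it was MYH9, PPP1CB, MYL9, PPP1R14B, ROCK2, then ROCK1 and PPP1R12A with overlapping ranges (8.74 to 9.77 and 8.89 to 9.73 FPKM), then MYLK, PPP1R14A and PPP1R14C. With Si-KDM4C#1, PPP1R14B was second to MYH9, and ROCK1 (4.36 to 5.50 FPKM) and PPP1R12A (2.78 to 3.47 FPKM) were apart. With Si-KDM4C#2, PPP1R14B was above MYH9, MYL9 and PPP1CB overlapped (23.3 to 27.5 and 21.1 to 24.9 FPKM), and ROCK1 and PPP1R12A overlapped again.

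Counted over the 9 genes other than PPP1R14B, of which 6 passed the filter, 1 was higher with Si-KDM4C#1 (MYH9) and 4 were lower (PPP1R12A, ROCK1, ROCK2 and MYL9) at a false discovery rate (FDR) of 0.05, while 31.7% of the 14363 genes tested were higher and 33.9% lower. With Si-KDM4C#2, 1 was higher (MYH9) and 3 were lower (PPP1CB, ROCK2 and MYL9), against 34.4% higher and 25% lower among all genes. Between the siRNAs, PPP1R12A and ROCK1 were higher and PPP1CB and MYH9 lower with Si-KDM4C#2, against 35.9% and 26.5%. An added limit was a fold change over 2, which the study states. It was taken here on the log2(FPKM + 1) scale, which understates the change of low genes. Past both limits, MYH9 and PPP1R12A were called with Si-KDM4C#1 (8.87% of all genes, either direction). None of the 9 genes was called with Si-KDM4C#2 (4.89% of all genes), and PPP1R12A was called between the siRNAs (6.91%). The median log2 fold change of the 6 genes past the filter was -0.32, -0.04 and -0.05 in these comparisons, beside -0.03, 0.06 and 0.08 over all genes tested. Both siRNA comparisons share the Scramble libraries.

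**Figure D3:**
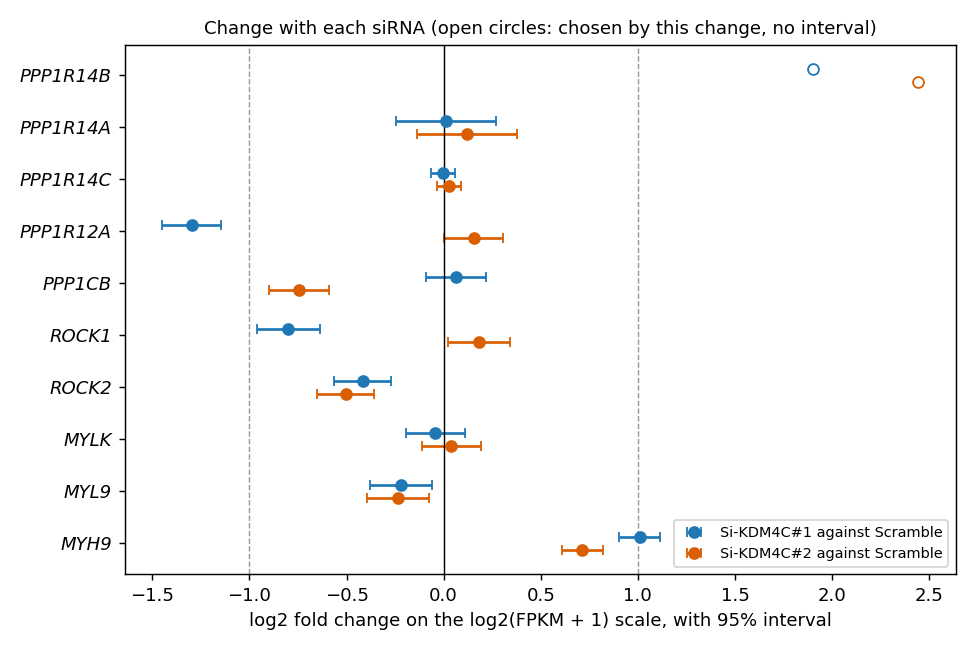
Log2 fold change on the log2(FPKM + 1) scale (horizontal axis) of the 10 genes with each siRNA against Scramble, with 95% intervals from limma and dashed lines at a 2-fold change. The open circles of PPP1R14B, at 1.90 and 2.44, chose the gene and carry no interval; PPP1R12A lies at -1.30 with Si-KDM4C#1 and 0.15 with Si-KDM4C#2, and PPP1CB at 0.06 and -0.74.

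Other genes of the pathway were read from 4 lists that hold 48 listed genes, 41 of them past the filter. Of these 41, 17 (41.5%) rose and 14 (34.1%) fell with Si-KDM4C#1, and 18 (43.9%) rose and 16 (39%) fell with Si-KDM4C#2. Over all genes tested, 31.7% rose and 33.9% fell with Si-KDM4C#1, and 34.4% rose and 25% fell with Si-KDM4C#2, and the counts of each list stand beside these shares. Of 11 other PP1 and myosin phosphatase genes, 7 passed the filter. Among these 7, 3 rose and 2 fell with Si-KDM4C#1, while 2 rose and 4 fell with Si-KDM4C#2. PPP1R12C, a MYPT-family subunit, rose from 4.74 ± 0.375 FPKM to 8.10 ± 0.475 with Si-KDM4C#1 and 8.62 ± 0.250 with Si-KDM4C#2 (SD, n = 3 each; log2 changes 0.67 and 0.75, adjusted p = 8.00e-06 and 5.82e-06). PPP1R2, PP1 inhibitor 2, fell by 0.88 on the log2 scale with Si-KDM4C#1 and by 0.27 with Si-KDM4C#2 (adjusted p = 2.56e-07 and 0.000803). The catalytic subunit PPP1CA, PP1 alpha, rose by 0.31 with Si-KDM4C#1 and fell by 0.46 with Si-KDM4C#2 (adjusted p = 0.0003 and 2.66e-05). PPP1CC, PP1 gamma, was named after its values were seen, as the remaining catalytic subunit. It was at 0.14 with Si-KDM4C#1 (adjusted p = 0.0817) and fell by 0.22 with Si-KDM4C#2 (adjusted p = 0.0156).

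Of 13 other kinases of the light chain or of MYPT1, 11 passed the filter. Among these 11, 2 rose and 4 fell with Si-KDM4C#1, while 5 rose and 3 fell with Si-KDM4C#2. CDC42BPB, the kinase MRCK beta, a Cdc42 effector related to ROCK, had 22.3 ± 0.9002 FPKM in Scramble, 5.08 ± 0.643 in Si-KDM4C#1 and 19.7 ± 0.346 in Si-KDM4C#2 libraries (log2 changes -1.94 and -0.17, adjusted p = 2.82e-08 and 0.0674). MYLK3, a light chain kinase known from heart muscle, fell by 1.05 and 0.52 on the log2 scale (adjusted p = 2.07e-07 and 3.06e-05). DAPK1, death-associated protein kinase, was at -0.17 with Si-KDM4C#1 (adjusted p = 0.0782) and fell by 1.08 with Si-KDM4C#2 (adjusted p = 2.47e-06). Of the 5 other myosin II chains, 4 passed the filter. Among these 4, 1 rose and 1 fell with Si-KDM4C#1, while 1 rose and 3 fell with Si-KDM4C#2. MYH10, the heavy chain of myosin IIB, fell by 0.55 and 0.39 (adjusted p = 0.000536 and 0.00556), against the rise of MYH9. MYL12A, a regulatory light chain, rose by 0.20 with Si-KDM4C#1 and fell by 0.22 with Si-KDM4C#2 (adjusted p = 0.00535 and 0.00423). MYL12B, a regulatory light chain named after its values were seen, had a mean of 126.8 FPKM in Scramble. It was at -0.003 with Si-KDM4C#1 (adjusted p = 0.952, limma) and fell by 0.23 with Si-KDM4C#2 (adjusted p = 0.00092). MYL6, an essential light chain, was at 0.08 with Si-KDM4C#1 (adjusted p = 0.492) and rose by 0.36 with Si-KDM4C#2 (adjusted p = 0.00763).

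ROCK substrates and actin filament genes numbered 19, and all passed the filter. Of these, 11 rose and 7 fell with Si-KDM4C#1, while 10 rose and 6 fell with Si-KDM4C#2 (all genes: 31.7% and 33.9%, then 34.4% and 25%). CALD1, caldesmon, which binds actin and restrains myosin, fell from 33.7 ± 0.873 FPKM in Scramble to 12.96 ± 0.621 with Si-KDM4C#1 and 2.95 ± 0.377 with Si-KDM4C#2 (log2 changes -1.32 and -3.14, adjusted p = 2.28e-07 and 5.14e-09). RDX, radixin, which links actin to the membrane, fell by 2.04 and 1.29 (adjusted p = 1.88e-07 and 5.51e-06). Tropomyosins differed: TPM4 rose by 1.68 and 2.19 (adjusted p = 3.69e-09 and 3.17e-09), and TPM1 fell by 1.00 and 0.30 (adjusted p = 4.52e-07 and 0.00199). LIMK1, a kinase that ROCK activates, rose by 0.96 and 1.76 (adjusted p = 3.41e-07 and 3.51e-08), and MARCKS, a membrane-bound actin cross-linker, by 1.06 and 1.22 (adjusted p = 1.81e-08 and 2.69e-08). The summed level of 7 fibroblast markers was 49.5 to 52.9 FPKM in Scramble, 56.1 to 59.1 with Si-KDM4C#1 and 79.7 to 80.8 with Si-KDM4C#2, with 4 of the 7 reaching 1 FPKM in some library. The sum followed COL3A1 (means of 27.5, 38.5 and 55.5 FPKM), while PDGFRB fell with both siRNAs (log2 differences of -1.17 and -0.54, adjusted p = 3.35e-06 and 0.00088) and LUM fell with Si-KDM4C#1 (-0.81, adjusted p = 9.97e-05). The part of these markers in the changes of the actin genes was not tested.

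**Figure D4:**
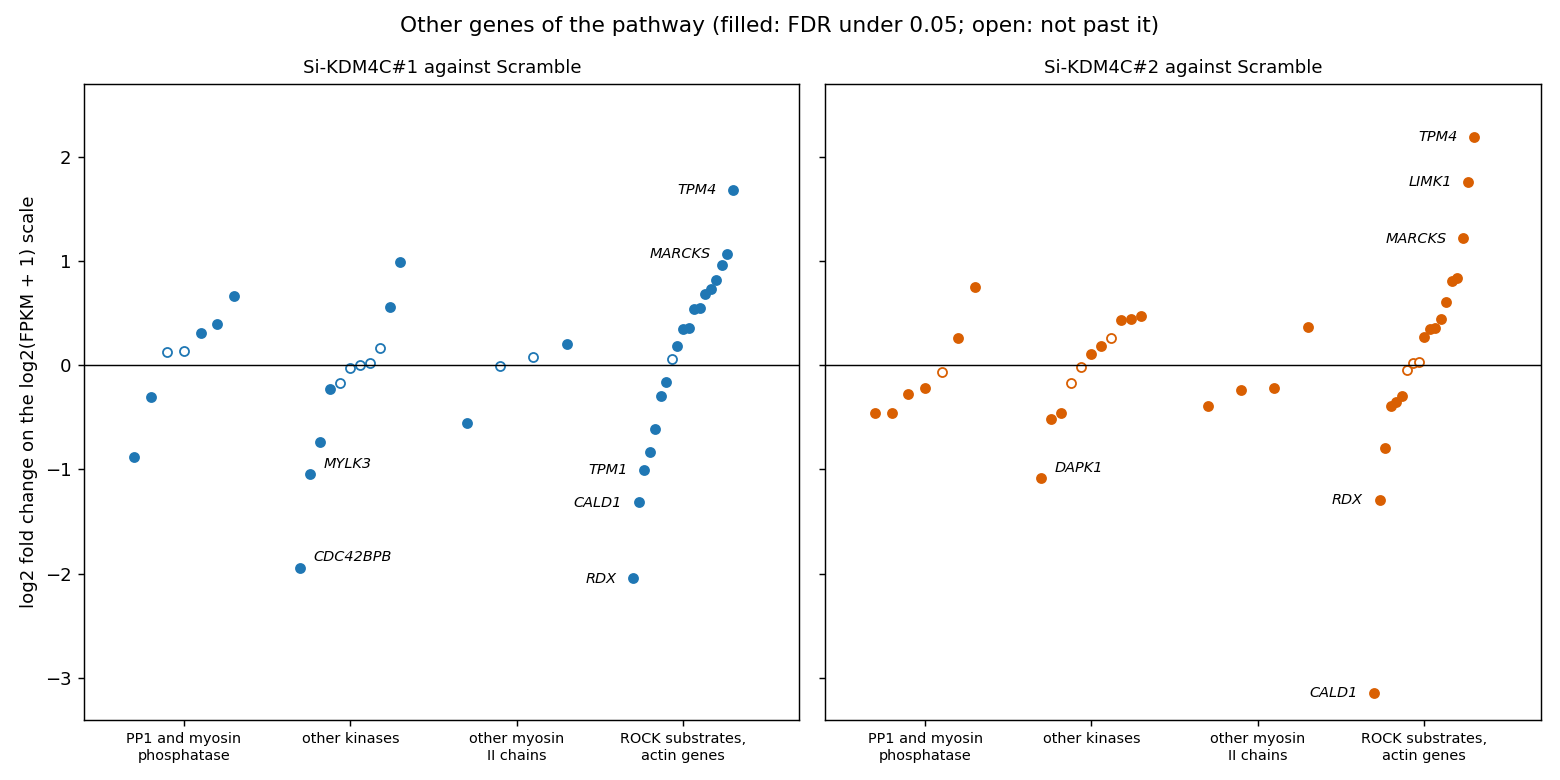
Log2 fold change on the log2(FPKM + 1) scale (vertical axis) of the 41 pathway genes past the filter, by list, with Si-KDM4C#1 (left) and Si-KDM4C#2 (right) against Scramble. Filled points have an FDR under 0.05, and genes beyond 2-fold on this scale are named. TPM4 is highest in both panels (1.68 and 2.19), and the lowest points are RDX with Si-KDM4C#1 (-2.04) and CALD1 with Si-KDM4C#2 (-3.14).

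The genes whose log2 level followed PPP1R14B most closely over the 9 libraries were MYBL2 (Pearson r = 0.9986), FKBP4 (0.9983), TPM4 (0.9982), PTMA (0.998) and PODXL2 (0.9968). The 9 points share 3 groups of 3, and 1126 of the other 14362 genes, or 7.84%, had r above 0.9, so the list describes a shared order of groups. MYBL2, a cell cycle transcription factor, had means of 48.0, 85.1 and 100.6 FPKM, and PTMA, prothymosin alpha, 161.1, 315.6 and 387.3 FPKM. PODXL2, a membrane sialomucin, had 20.02, 56.4 and 77.1 FPKM, and FKBP4, a co-chaperone, 25.5, 44.3 and 50.1 FPKM.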

How the data were processed

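RNA-seq was read in 9 libraries, 3 replicates in each of 3 groups, taken from the labels. The values are FPKM that the authors deposited, 1 list per library with 32906 genes. The submitters' processing notes name FastQC 0.11.5, HISAT2 2.1.0, StringTie 1.3.3b, DESeq 1.28.0, featureCounts and GRCh38. The annotation is not given in the sources used here, and the library kit was NEBNext Ultra without a stated strand setting. Libraries were not filtered or rescaled further.

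Values were tested with limma 3.58.1 (R 4.3.3, empirical Bayes with trend) on log2 of the deposited FPKM plus a pseudocount of 1, with all 9 libraries in 1 fit, over the 14363 genes whose mean reached 1 FPKM in some group. Genes under that filter were read from a fit over all 32906 genes. P-values were adjusted by Benjamini-Hochberg over all genes fitted, and calls were made at an FDR of 0.05. A second limit was a fold change over 2 on the log2(FPKM + 1) scale. The test was checked on simulated data, where it recovered 199 of 200 genes changed 4-fold in 13706 genes for Si-KDM4C#1 against Scramble, with 8 false calls. Recovered genes and false calls were counted with both limits, an FDR of 0.05 and a fold change over 2. Smaller changes were not simulated, and far fewer genes changed than were called here. These counts therefore do not cover the calls made at the FDR alone. Whole fragments were recovered with exon lengths of GENCODE 29: 97.5% of genes were within 0.05 of whole in all libraries. PPP1R12A was not (up to 0.429 away), so its fragments were rounded. A floor of 3 fragments is 0.166 to 0.206 FPKM for 1 kb of exon. It covers counting error only.

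The 10 genes and all lists were chosen with earlier results of these data known. Named pathway genes are the 2 tested genes with the largest absolute log2 change in each list and siRNA comparison, and every gene past both limits; 1 list is not reported here. The 5 genes most like PPP1R14B were taken by Pearson r. Alternatives were a pseudocount of 0.1, quantile normalization, no filter, at least 1 FPKM in every library, only the 6 libraries compared, a replicate block, limma voom on recovered fragments (at least 10 in at least 3 libraries), a GC lowess adjustment (span 0.3) alone and with the block, and leaving out each library. Promoter sequences are RefSeq's on GRCh38.p14. Figures were drawn with matplotlib 3.10.9 in Python 3.11.15.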

Additional observations from a re-analysis of the deposited data

Results flagged for a closer look

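PPP1R12A, PPP1CB and ROCK1 had log2 values of opposite sign with the 2 siRNAs, and the direct difference passed the test for each. In each gene only 1 of the 2 values passed against Scramble, and the Si-KDM4C#1 value of PPP1CB was -0.12 with quantile normalization. For PPP1R12A, Si-KDM4C#2 minus Si-KDM4C#1 was 1.45 on the log2 scale (effects of -1.30 and 0.15, adjusted p = 1.48e-07, limma). For PPP1CB it was -0.81 (effects of 0.06 and -0.74, adjusted p = 6.42e-06). For ROCK1 it was 0.98 (effects of -0.80 and 0.18, adjusted p = 2.22e-06).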

How the results depend on the processing

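KDM4C stayed lower and past the threshold under every alternative run, at -1.97 to -1.29 with Si-KDM4C#1 and -4.10 to -2.12 with Si-KDM4C#2. Over the log2 values of the 10 genes and all alternatives, 463 were unchanged, 17 moved past the threshold, 7 fell short of it and 13 reversed. Another 7, all of PPP1R14B, moved by more than the replicate spread. Unchanged values kept their direction and side of the threshold. For PPP1R14B, which was not tested, they kept their direction and stayed within the replicate spread. With Si-KDM4C#1, 2 rather than 1 of the 9 genes were higher with the GC adjustment, alone and with the replicate block, because PPP1CB passed. Past both limits there were 1 rather than 2 with quantile normalization and with the GC adjustment, alone and with the block, and 1 to 2 when each library was left out (1 without Scramble replicate 2 or Si-KDM4C#1 replicate 1), as MYH9 fell under 2-fold. With Si-KDM4C#2, 2 rather than 1 were higher with at least 1 FPKM in every library, the replicate block and limma voom, 3 with only the 6 libraries and with the GC adjustment, alone and with the block, and 1 to 3 when each library was left out (2 without Si-KDM4C#1 replicate 1, 3 without Si-KDM4C#1 replicate 3), as ROCK1 and then PPP1R12A passed. Between the siRNAs, 2 rather than 1 were past both limits with a pseudocount of 0.1, and 1 to 2 when each library was left out (2 without Si-KDM4C#1 replicate 1), as ROCK1 passed 2-fold. Quantile normalization reversed values near 0: PPP1R14C (0.011), PPP1CB (-0.12) and MYLK (0.0888) with Si-KDM4C#1, and MYLK (-0.0053) and MYL9 (0.0132) between the siRNAs. Leaving out single libraries gave ranges across 0 for PPP1R14A (-0.0489 to 0.0548) and PPP1R14C (-0.0267 to 0.00948) with Si-KDM4C#1, and for PPP1R14A (-0.0064 to 0.23) and MYL9 (-0.0796 to 0.0355) between the siRNAs. The log2 rise of PPP1R14B was 1.71 and 2.30 with quantile normalization, and its difference between the siRNAs was 0.42 with limma voom. MYL9 missed the threshold with Si-KDM4C#1 when no filter was used (adjusted p = 0.0561). Over all genes, 1274, 703 and 992 were past both limits with Si-KDM4C#1, with Si-KDM4C#2 and between the siRNAs, against 2302, 1443 and 1937 with a pseudocount of 0.1 and 3104, 2054 and 2649 of 16547 genes with limma voom. The causes were not tested beyond these values.

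Same-numbered libraries of different groups deviated together only weakly (mean r 0.016 over 9 pairs, -0.0461 to 0.0546, against mean r -0.0081 over 18 other pairs). Of the 9 libraries, 6 correlated best with a library of their own number. These values do not settle whether the numbers pair the libraries, and the main fit did not pair them. The replicate block moved no other count by over 1.5 times. Depth limits PPP1R14A and PPP1R14C, which had 0 to 9 fragments a library.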
